A study of Homo sapiens with 6 samples.

Results

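The expression of 28 genes of cholesterol synthesis and its control by the SREBP transcription factors was described in the human glioblastoma cell line U251, with and without the inflammatory cytokine TNF-α. The genes were selected by symbol from a written list of pathway members, chosen with earlier results of these data known, and each symbol matched 1 of the 58735 genes in the deposited table. All 28 passed the filter on low values, a level of 1 FPKM or more in 3 or more libraries, which 12136 genes passed in all. FPKM, fragments scaled by gene length and library total, is corrected for length, so levels of different genes can be set side by side. Where exons are shared with other annotated genes, a level is less certain. The list does not cover every gene of the pathway, and 4 further lists of related genes are described at the end.

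RNA-seq was performed on 3 NC libraries and 3 TNF-α libraries. The TNF-α group received the cytokine at 10 ng/mL for 24 h, and the NC group received the same volume of sterile deionized water. Both groups were cultures of the same cell line without any genetic change, and the labels describe the 3 libraries of a condition as independent biological replicates. Between 31992167 and 37897044 reads fell in genes per library. U251 is a single line grown without the immune cells that release TNF-α in tumours, which limits it as a model of the tissue.

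Cholesterol is assembled from acetyl-CoA through mevalonate and the prenyl diphosphates to squalene, which is closed into the sterol ring and then trimmed and reduced in the late steps. The main transcriptional regulator of the route is SREBP-2, the product of SREBF2, a membrane protein held in the endoplasmic reticulum with its escort SCAP by the INSIG proteins when sterols are plentiful. When sterols run low, SCAP carries it to the Golgi, where the proteases encoded by MBTPS1 and MBTPS2 release the part that enters the nucleus and binds sterol response elements, often beside a CCAAT box bound by NF-Y. The brain makes its own cholesterol behind the blood-brain barrier, and glioma cells are known to need a steady supply of it.

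The libraries had to be examined before the genes were compared, because TNF-α replicates 2 and 3 stood apart from the other 4 libraries. GC content and exonic length together fitted 34.1% and 33.0% of the variance of their log2 ratio to the NC mean across genes. The share was 1.27% for TNF-α replicate 1 and between 3.25% and 16.6% for NC. Each NC library was set there against the mean of the remaining NC libraries. The library total inside the FPKM was 0.693 and 0.759 of the reads in genes in these replicates and 0.925 to 0.959 in the others. For 25 of the 28 genes each TNF-α library is therefore given on its own below, and IDI1, SREBF2 and INSIG2 are given by their ranges. The treatment label held in all 3 TNF-α libraries. NFKBIA, the inhibitor that NF-kB itself induces, was 13.0, 13.3 and 14.4 FPKM in NC and 75.3, 118 and 112 FPKM in TNF-α (adjusted p = 0.00415 by limma), and the NF-kB targets TNFAIP3, CXCL8 and ICAM1 also passed the test. The glioma markers VIM, NES, CD44 and SOX2 were at 22.6 FPKM or more in every library, whereas the astrocyte filament gene GFAP was low, at 7.10 to 9.47 FPKM in NC and 1.58 to 2.60 FPKM in TNF-α (adjusted p = 0.0210). The leukocyte marker PTPRC was at 0 in all 6 libraries, and CD68, PECAM1, EPCAM and RBFOX3 did not exceed 0.0705 FPKM.

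In untreated cells the 28 genes spanned a wide range of levels. The most abundant were LBR at 35.3 ± 4.28 FPKM (SD, n = 3) and FDFT1 at 34.6 ± 1.64 FPKM, which did not differ beyond their spread, followed by PMVK at 29.4 ± 1.52 FPKM and SCAP at 23.6 ± 1.09 FPKM. SREBF2, DHCR7 and NSDHL came next, at 21.2 ± 1.56, 20.7 ± 1.05 and 20.0 ± 1.25 FPKM, and lay within each other's spread. At the other end were GGPS1 at 1.76 ± 0.113 FPKM, CYP51A1 at 2.05 ± 0.392 FPKM and HSD17B7 at 2.53 ± 0.316 FPKM. Other annotated genes cover 41.0% of the exonic bases of GGPS1 and 83.2% of those of CYP51A1, so their low ranks are uncertain. LBR ranked above 89.7% of the genes tested and GGPS1 above 14.1%. Successive enzymes of the route therefore sat at unequal transcript levels, for example MVK at 2.89 ± 0.119 FPKM before PMVK at 29.4 FPKM and MVD at 4.65 ± 0.860 FPKM.

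**Figure D1:**
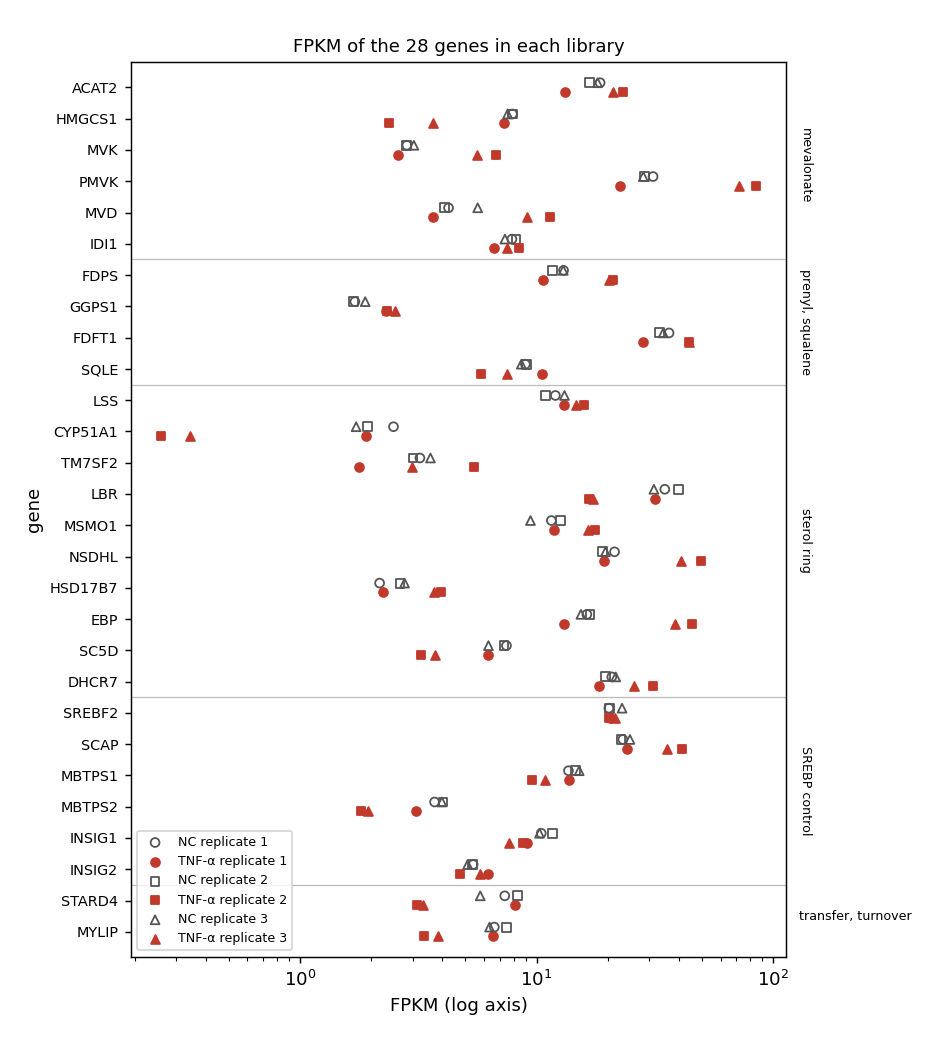
FPKM (log axis) of the 28 genes in each of the 6 libraries, open grey symbols for NC, filled red symbols for TNF-α, and 1 symbol shape per replicate number. For most genes the red circles of TNF-α replicate 1 lie nearer the grey symbols than the squares and triangles of replicates 2 and 3. Exceptions include ACAT2, IDI1, TM7SF2 and INSIG2. In GGPS1, HMGCS1, SC5D, MBTPS2 and INSIG1 all 3 red symbols lie on one side of the grey ones.

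No gene of the 28 passed the test between TNF-α and NC. The test was limma on log2(FPKM + 1) with Benjamini-Hochberg adjustment over all 12136 genes, and the adjusted p-values of the 28 ran from 0.195 to 0.924. Across all genes 1.01% passed, 0.717% higher and 0.297% lower in TNF-α. At an unadjusted p under 0.05 there were 7 of the 28 genes (25.0%), against 24.2% of all genes. GGPS1 had a positive fold change (3.57%, against 12.3%). HMGCS1, CYP51A1, LBR, SC5D, MBTPS2 and INSIG1 had a negative one (21.4%, against 11.9%). limma-voom on the recovered reads also called 0 of the 28. The fold changes below are on the log2(FPKM + 1) scale, on which the change of a gene near the pseudocount comes out too small.

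The groups did not overlap in 5 of the 28 genes (17.9%), against 30.1% of all genes. GGPS1 was higher in every TNF-α library than in every NC library, and HMGCS1, SC5D, MBTPS2 and INSIG1 were lower. The median log2 fold change was 0.06, with 15 genes above 0 and 13 below, next to 0.04 for all genes tested, 6432 above 0 and 5704 below. As TPM both medians were -0.42. When each library was divided by its own reads, the 28 genes held 0.157%, 0.159% and 0.153% of the reads in NC and 0.141%, 0.135% and 0.139% of those in TNF-α. Each TNF-α share lay below each NC share on this scale, but not on others. Divided by TMM factors, which adjust for library composition, the shares were 0.147%, 0.147% and 0.145% in NC and 0.135%, 0.159% and 0.151% in TNF-α, so that TNF-α replicates 2 and 3 lay above NC and replicate 1 below. With the library totals inside the FPKM the same replicates lay above NC as well, at 0.195% and 0.184% against 0.165% to 0.166%. No direction of the summed level is therefore given. In bulk libraries less RNA per cell and fewer cells expressing a gene cannot be told apart.

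TNF-α replicate 1 and the other TNF-α replicates placed several of the genes on different sides of NC. In replicates 2 and 3, 14 genes lay above every NC library (50.0%, against 46.1% of all genes) and 10 below (35.7%, against 40.8%). In replicate 1, 3 genes lay above every NC library (10.7%, against 30.5%) and 14 below (50.0%, against 34.3%). As many as 8 genes were above NC in replicates 2 and 3 and below NC in replicate 1 (28.6%, against 15.2%), namely ACAT2, MVK, PMVK, MVD, FDPS, FDFT1, EBP and DHCR7, whereas SQLE alone showed the opposite arrangement (3.57%, against 12.1%). Without TNF-α replicate 1, 24 of the 28 genes passed the test, as did 79.4% of all genes, 14 of them higher in TNF-α (50.0%, against 42.6%) and 10 lower (35.7%, against 36.8%). The other 4 were IDI1, TM7SF2, SREBF2 and INSIG2. When TNF-α replicate 1 alone was set against NC, with its spread assumed to be that of the NC libraries, 6.03% of all genes passed and 2 of the 28 did, ACAT2 at a log2 fold change of -0.41 (adjusted p = 0.0481) and TM7SF2 at -0.62 (adjusted p = 0.0288).

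**Figure D2:**
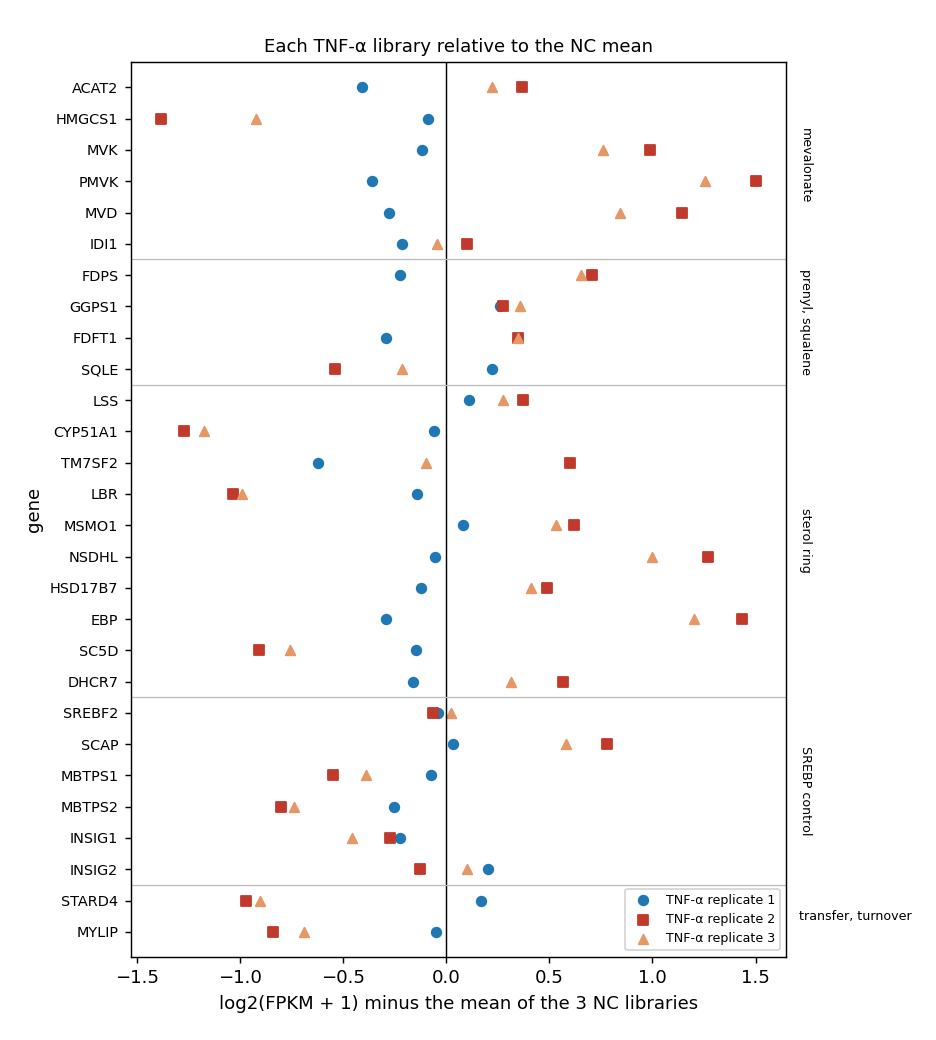
Difference in log2(FPKM + 1) between each TNF-α library and the mean of the 3 NC libraries for the 28 genes, circles for TNF-α replicate 1, squares for replicate 2 and triangles for replicate 3. Squares and triangles lie close together for most genes, and for 8 genes they lie above every NC library while the circle lies below every one.

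The promoters of 25 of the 28 genes were found in RefSeq, as windows around an annotated start on GRCh38.p14, 250 bases before it and 50 after, and both strands were searched for 4 short motifs. The sterol response element core TCACNCCAC was present in SREBF2 alone (4.0% of the genes matched, against 1.39% of all 27305 genes with a window). The shorter core CACNCCAC, which lies inside the first, was present in IDI1, INSIG1, SC5D and SREBF2 (16.0%, against 7.05%). CCAAT was present in 18 genes (72.0%, against 39.7%), and the kappa B consensus, the motif bound by NF-kB, in 8 genes (32.0%, against 13.3%), CYP51A1, FDPS, GGPS1, HMGCS1, INSIG2, MVK, MYLIP and SREBF2. The 27305 genes were not restricted to those that passed the filter, nor matched in GC content. A match describes letters and not a bound site. Stretches are shown of INSIG1, HMGCS1 and GGPS1, which are 3 of the 5 genes without overlap between groups, and of SREBF2 for its full sterol response element core. Sequences run 5′ to 3′ on the gene's strand, with motif matches in capitals, and a CCAAT box on the other strand reads ATTGG.
SREBF2, chr22:41832957-41833018, + strand: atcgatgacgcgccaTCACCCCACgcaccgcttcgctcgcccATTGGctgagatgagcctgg
INSIG1, chr7:155297655-155297727, + strand: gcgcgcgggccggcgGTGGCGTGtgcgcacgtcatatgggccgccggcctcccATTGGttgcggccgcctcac
HMGCS1, chr5:43313548-43313582, - strand: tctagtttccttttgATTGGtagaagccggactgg
GGPS1, chr1:235328320-235328349, + strand: cactgttcctATTGGtccctggatacaaac
The SREBF2 stretch holds the sterol response element core (TCACCCCAC) and an inverted CCAAT box within 62 bases that lie 148 to 87 bases before the start. The INSIG1 stretch holds the shorter core on the other strand, read as GTGGCGTG, and a CCAAT box, and the HMGCS1 and GGPS1 stretches hold a CCAAT box only.

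The mevalonate arm leads from acetyl-CoA to isopentenyl and dimethylallyl diphosphate, and the list holds 6 of its genes, not the whole arm. All 6 lay under every NC library in TNF-α replicate 1, a position that 34.3% of all genes took. The median difference of the 6 genes from the NC mean was -0.25 in that replicate and 0.68 and 0.49 in TNF-α replicates 2 and 3, on the log2 scale. The median log2 fold change over the 3 libraries was 0.30. HMGCS1 was the exception in replicates 2 and 3, the only gene of the arm below every NC library there.

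HMGCS1 (chr5:43289395-43313512), the synthase that makes HMG-CoA and a classical SREBP-2 target, was 7.90, 7.92 and 7.55 FPKM in NC and 7.27, 2.37 and 3.64 FPKM in TNF-α. All TNF-α libraries lay below NC, replicate 1 by a small margin. The log2 fold change was -0.80 (95% interval -1.57 to -0.02), with an adjusted p of 0.195. ACAT2, the cytosolic thiolase that joins acetyl-CoA units, is a different enzyme from the sterol acyltransferase of the same nickname. It was 18.6, 16.8 and 18.1 FPKM in NC and 13.2, 23.3 and 21.0 FPKM in TNF-α, so that the TNF-α libraries lay on both sides of NC. The log2 fold change was 0.06 (-0.48 to 0.60). Of its exonic bases 52.3% were shared with an additional SOD2 entry, SOD2-OT1 and TCP1, all on the opposite strand. The SOD2 entry had 0 to 2 reads per library and SOD2-OT1 had 0, while the reads of TCP1 were not examined. The use of strand in counting is not given in the sources used here.

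PMVK, the kinase that adds the second phosphate to mevalonate, was 31.1, 28.7 and 28.3 FPKM in NC and 22.6, 85.0 and 71.5 FPKM in TNF-α. TNF-α replicates 2 and 3 were far above NC and replicate 1 below it, and the interval of its log2 fold change of 0.80 was accordingly wide (-0.37 to 1.97). MVK, the kinase of the preceding step, was 2.83, 2.82 and 3.03 FPKM in NC and 2.59, 6.71 and 5.61 FPKM in TNF-α (log2 fold change 0.54, -0.16 to 1.24). MVD, the decarboxylase that yields isopentenyl diphosphate, was 4.25, 4.07 and 5.64 FPKM in NC and 3.64, 11.4 and 9.08 FPKM in TNF-α (log2 fold change 0.57, -0.33 to 1.47). These 3 genes shared the arrangement of replicate 1 below and replicates 2 and 3 above every NC library. IDI1, the isomerase that makes dimethylallyl diphosphate, ranged from 7.35 to 8.19 FPKM in NC and from 6.58 to 8.44 FPKM in TNF-α, and the groups overlapped (log2 fold change -0.05, -0.38 to 0.27).

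The 4 genes of the prenyl diphosphate and squalene steps had a median log2 fold change of 0.22. Among them GGPS1 was the single gene of the 28 that lay above every NC library in all 3 TNF-α libraries. The other 3 had TNF-α replicate 1 on the opposite side of NC from replicates 2 and 3.

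GGPS1 (chr1:235327350-235344532) makes geranylgeranyl diphosphate, which leaves the sterol route for protein prenylation. It was 1.71, 1.68 and 1.89 FPKM in NC and 2.30, 2.34 and 2.53 FPKM in TNF-α. The TNF-α libraries were close to each other and all above NC, unlike most of the 28 genes. The log2 fold change was 0.30 (0.03 to 0.57) with an adjusted p of 0.195. Depth behind these values was modest, 235, 210 and 231 reads in NC and 282, 231 and 234 reads in TNF-α, so that in reads the groups overlapped. As TPM, which rescales every library to the same sum, the log2 fold change of GGPS1 was -0.05, where the median of all genes was -0.42. Exons of a TBCE entry on the same strand, which had 10 to 93 reads, and of ARID4B together covered 41.0% of its exonic bases.

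FDPS, the farnesyl diphosphate synthase at the branch point, was 13.0, 11.7 and 13.0 FPKM in NC and 10.6, 21.1 and 20.3 FPKM in TNF-α (log2 fold change 0.38, -0.27 to 1.03). The annotation names 8 pseudogenes of FDPS, with which reads may be shared. FDFT1, squalene synthase, was 36.3, 33.1 and 34.3 FPKM in NC and 28.1, 44.3 and 44.2 FPKM in TNF-α (log2 fold change 0.13, -0.37 to 0.64). SQLE, the epoxidase that acts on squalene, was 8.97, 9.09 and 8.63 FPKM in NC and 10.6, 5.83 and 7.54 FPKM in TNF-α (log2 fold change -0.18, -0.67 to 0.32). FDPS and FDFT1 were thus lower than NC in TNF-α replicate 1 and higher in replicates 2 and 3, and SQLE the reverse.

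The 10 genes of ring closure and the late steps split in replicates 2 and 3, where 6 lay above every NC library and 3 below, against 46.1% and 40.8% of all genes. In replicate 1 none of the 10 lay above and 4 lay below, against 30.5% and 34.3%. Their median log2 fold change was 0.25. At an unadjusted p under 0.05 there were 3 of the 10, CYP51A1, LBR and SC5D, all with negative fold changes. Of all genes 11.9% were there in that direction.

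LSS, the cyclase that closes the ring to lanosterol, was 12.01, 10.9 and 13.1 FPKM in NC and 13.0, 15.8 and 14.7 FPKM in TNF-α, where replicate 1 lay just inside the NC range (log2 fold change 0.25, -0.08 to 0.59). CYP51A1, the lanosterol demethylase, was 2.49, 1.93 and 1.73 FPKM in NC and 1.91, 0.258 and 0.345 FPKM in TNF-α. Replicate 1 was within the NC range and replicates 2 and 3 were far below it, at 24 and 30 reads against 199 to 322 reads in NC. Its log2 fold change of -0.83 (-1.65 to -0.02, adjusted p = 0.195) was the most negative of the 28, and it was -1.64 with a pseudocount of 0.1, -1.62 as TPM and -1.87 with limma-voom. In TNF-α replicate 1 alone it was -0.06. The value is uncertain in another way, since 83.2% of its exonic bases lie in other annotated genes, mostly in AC000120.2 on the same strand, which had 0 or 1 reads per library, and the annotation names 3 pseudogenes.

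Reduction of the ring double bond left after demethylation is carried out by the products of both TM7SF2 and LBR, the latter also an anchor of chromatin at the inner nuclear membrane. TM7SF2 was 3.22, 3.01 and 3.56 FPKM in NC and 1.77, 5.45 and 2.97 FPKM in TNF-α. Its TNF-α replicates were spread below, above and just under the NC range, with a log2 fold change of -0.04 (-0.77 to 0.69). LBR was 34.8, 39.8 and 31.3 FPKM in NC and 31.8, 16.7 and 17.3 FPKM in TNF-α. In replicate 1 it was within the NC range, and the log2 fold change was -0.72 (-1.38 to -0.07, adjusted p = 0.195).

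MSMO1, the oxidase that starts removal of the remaining methyl groups, was 11.6, 12.7 and 9.43 FPKM in NC and 11.8, 17.6 and 16.5 FPKM in TNF-α (log2 fold change 0.41, -0.06 to 0.88). NSDHL, the dehydrogenase of the same step, was 21.4, 19.0 and 19.6 FPKM in NC and 19.2, 49.4 and 40.9 FPKM in TNF-α (log2 fold change 0.74, -0.09 to 1.57). HSD17B7, the ketoreductase that completes it, was 2.17, 2.65 and 2.77 FPKM in NC and 2.24, 3.94 and 3.69 FPKM in TNF-α (log2 fold change 0.26, -0.21 to 0.73). The 3 demethylation genes had the same layout, with replicate 1 inside the NC range and replicates 2 and 3 above it. For HSD17B7 the annotation names 2 pseudogenes.

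EBP, the isomerase that shifts the ring double bond, was 16.3, 16.8 and 15.4 FPKM in NC and 13.0, 45.4 and 38.5 FPKM in TNF-α (log2 fold change 0.78, -0.30 to 1.86). DHCR7, the reductase that makes cholesterol from its direct precursor, was 20.8, 19.5 and 21.6 FPKM in NC and 18.4, 31.1 and 25.9 FPKM in TNF-α (log2 fold change 0.24, -0.26 to 0.75). In both, replicate 1 lay below and replicates 2 and 3 above NC. SC5D (chr11:121292453-121308694), the desaturase acting between them, was 7.46, 7.29 and 6.26 FPKM in NC and 6.21, 3.26 and 3.72 FPKM in TNF-α. It was lower in all 3 TNF-α libraries than in any NC library, replicate 1 by a small margin, and its log2 fold change was -0.60 (-1.14 to -0.07, adjusted p = 0.195).

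The 6 genes that control SREBP had a median log2 fold change of -0.17. Of these, MBTPS2 and INSIG1 were lower in all TNF-α libraries than in any NC library, and SREBF2 itself was nearly level. SREBF2 (chr22:41833079-41907308) ranged from 20.2 to 23.0 FPKM in NC and from 20.2 to 21.6 FPKM in TNF-α. Its log2 fold change was -0.03 (-0.33 to 0.28), an interval that leaves room for a change of either sign.

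INSIG1 (chr7:155297776-155310235), which retains SCAP in the endoplasmic reticulum and is itself a sensitive SREBP target, was 10.5, 11.7 and 10.3 FPKM in NC and 9.11, 8.77 and 7.62 FPKM in TNF-α. The 3 TNF-α libraries were close to each other and all below NC. The means were 10.8 ± 0.768 and 8.50 ± 0.785 FPKM (SD, n = 3 each), and the log2 fold change was -0.32 (-0.63 to -0.00, adjusted p = 0.195). INSIG2, its paralogue with sterol-independent expression, ranged from 5.11 to 5.39 FPKM in NC and from 4.76 to 6.23 FPKM in TNF-α, on both sides of NC (log2 fold change 0.06, -0.26 to 0.38). Whether the 2 paralogues differed in their response was not tested.

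SCAP, the sterol sensor and escort, was 23.2, 22.8 and 24.8 FPKM in NC and 24.2, 41.1 and 35.7 FPKM in TNF-α. Replicate 1 was within the NC range and the other two above it (log2 fold change 0.46, -0.05 to 0.98). MBTPS1, which makes the first cut in SREBP, was 13.6, 14.6 and 15.1 FPKM in NC and 13.7, 9.58 and 10.8 FPKM in TNF-α (log2 fold change -0.34, -0.72 to 0.05). MBTPS2 (chrX:21839636-21885424), which makes the second cut within the membrane, was 3.71, 4.02 and 3.98 FPKM in NC and 3.11, 1.82 and 1.94 FPKM in TNF-α. All TNF-α values of MBTPS2 were below NC, and its log2 fold change was -0.60 (-1.02 to -0.18). The unadjusted p of 0.013 in limma was the smallest of the 28, and the adjusted p was 0.195. Exons of YY2 and RF00019 on the same strand covered 13.4% of the exonic bases of MBTPS2.

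STARD4, which carries cholesterol between membranes, was 7.34, 8.33 and 5.78 FPKM in NC and 8.09, 3.13 and 3.33 FPKM in TNF-α (log2 fold change -0.57, -1.37 to 0.23). MYLIP, also called IDOL, an E3 ligase that sends lipoprotein receptors for degradation, was 6.63, 7.47 and 6.33 FPKM in NC and 6.55, 3.36 and 3.84 FPKM in TNF-α (log2 fold change -0.52, -1.07 to 0.02). In both genes replicate 1 was within the NC range and replicates 2 and 3 were below it. The median of the pair was -0.55.

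The sides on which the genes lay in TNF-α replicates 2 and 3 went with their base composition. The 14 genes above NC there had a median GC content of 54.7% (38.1% to 63.7%) in their longest transcript, and the 10 below had 40.8% (34.2% to 50.9%). Their median exonic lengths were 4229.5 and 4979.5 bases. Over the 28 genes, Pearson's r between GC content and the mean difference from NC was 0.65 in replicates 2 and 3 and -0.42 in replicate 1, and with log2 exonic length it was -0.44 and 0.20. Over all 12131 genes with a GC value the first pair was 0.43 and -0.07 and the second -0.27 and 0.00. These are descriptions across genes of the same libraries, which are not independent replicates, and the part of base composition in the values above was not tested.

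**Figure D3:**
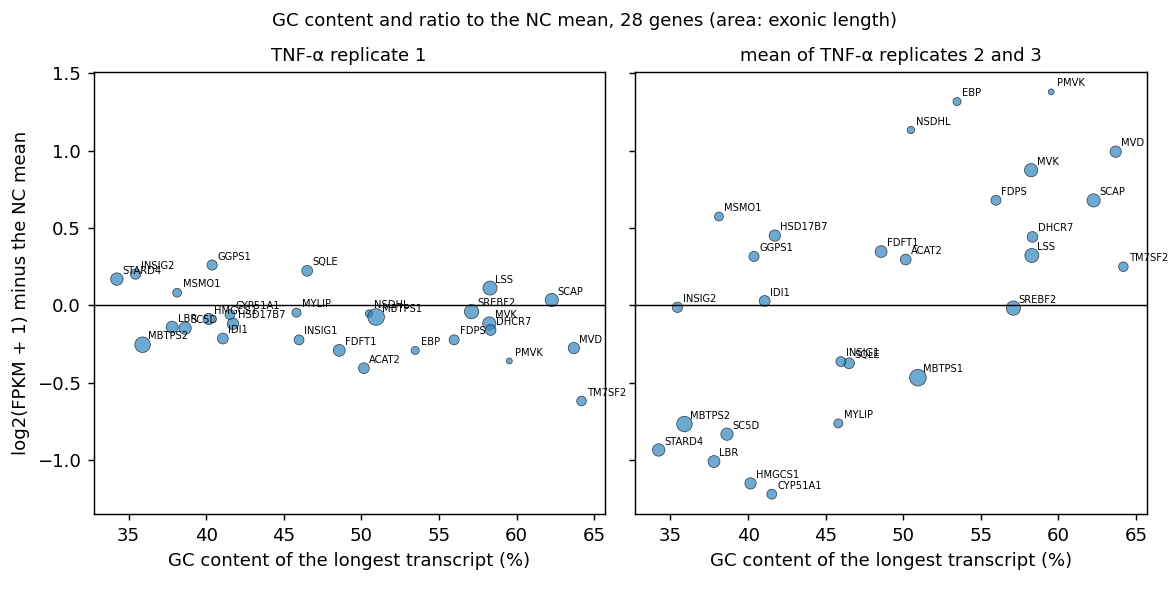
Difference in log2(FPKM + 1) from the NC mean against GC content of the longest transcript (%) for the 28 genes, TNF-α replicate 1 on the left and the mean of replicates 2 and 3 on the right, with symbol area for exonic length. On the right, genes of low GC content such as STARD4 and MBTPS2 lie below 0 and most genes above 50% lie above it, and on the left no point is further from 0 than TM7SF2 at -0.62.

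The fold changes were therefore also computed after a smooth function of GC content and exonic length had been subtracted from each library. The median log2 fold change of the 28 genes was then -0.08, against -0.00 for all genes. The arm medians moved from 0.30 to 0.10 in the mevalonate arm, from 0.22 to 0.03 in the prenyl and squalene steps and from 0.25 to -0.06 in the ring and late steps. The medians of the other groups moved less, from -0.17 to -0.14 in SREBP control and from -0.55 to -0.50 in STARD4 and MYLIP. Still 0 of the 28 passed, against 2.04% of all genes, with 8 at an unadjusted p under 0.05 (28.6%, against 27.9%). The groups did not overlap in 13 genes (46.4%, against 34.3%), of which 9 were lower in TNF-α (32.1%, against 18.7%) and 4 higher (14.3%, against 15.7%).

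Most of the larger fold changes came closer to 0, and those of CYP51A1 and MYLIP did not. CYP51A1 went from -0.83 to -0.85 (-1.66 to -0.03) and MYLIP from -0.52 to -0.70 (-1.38 to -0.02). The smaller changes of INSIG1 and GGPS1 also moved away from 0. INSIG1 went from -0.32 to -0.44 (-0.75 to -0.13, adjusted p = 0.135), and GGPS1 from 0.30 to 0.34 (0.08 to 0.60, adjusted p = 0.150). PMVK in contrast moved from 0.80 to 0.24, EBP from 0.78 to 0.37 and MVD from 0.57 to 0.14. Among the negative ones, HMGCS1 moved from -0.80 to -0.62 (-1.21 to -0.03) and MBTPS2 from -0.60 to -0.17. SC5D moved from -0.60 to -0.31, STARD4 from -0.57 to -0.31 and LBR from -0.72 to -0.46. TM7SF2 moved from -0.04 to -0.68 (-1.04 to -0.32), with an adjusted p of 0.0828 that was the smallest of the 28 after correction. SREBF2 was at -0.14 (-0.37 to 0.08) after correction, and its 3 TNF-α libraries then lay below NC.

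**Figure D4:**
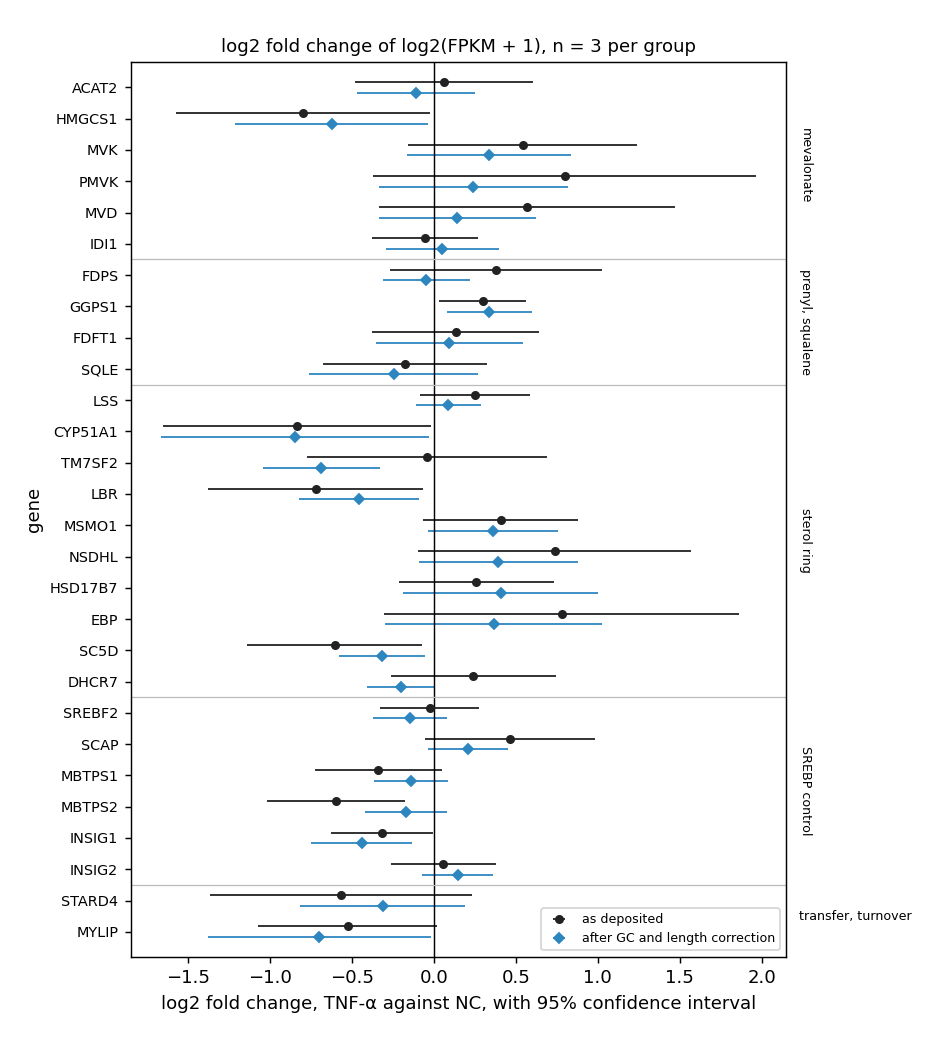
log2 fold change of TNF-α against NC with its 95% confidence interval for the 28 genes, black circles for the values as deposited and blue diamonds after the GC and length correction (n = 3 per group). Black intervals of genes such as PMVK and EBP are wide, and the intervals of HMGCS1, GGPS1, CYP51A1, LBR, SC5D and INSIG1 stay on one side of 0 in both.

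The SREBP-linked genes outside the 28 were taken from 4 further lists of 53 genes, of which 46 passed the filter. None of the 46 passed the test in limma, and the median log2 fold change was -0.00. An unadjusted p under 0.05 was reached by 12 (26.1%, against 24.2% of all genes). Of these, 8 were higher in TNF-α (17.4% of the 46, against 12.3%) and 4 lower, a side that 11.9% of all genes took. Among 13 partners of sterol sensing and SREBP processing the median was -0.01 and 1 gene had an unadjusted p under 0.05 (7.69%, against 24.2%). It was ERLIN2, which helps to degrade sterol-regulated membrane proteins (5.94 ± 0.205 FPKM in NC, 4.20 ± 0.564 FPKM in TNF-α, log2 fold change -0.42). After the correction for GC content and length ERLIN2 was at -0.03. SREBF1, which encodes the SREBP forms that mainly serve fatty acid synthesis, was 10.4, 11.0 and 10.8 FPKM in NC and 6.39, 8.86 and 9.41 FPKM in TNF-α, below NC in all 3 libraries. Its log2 fold change was -0.36 (-0.76 to 0.03, adjusted p = 0.195). With GC and length corrected it was -0.56 and passed (adjusted p = 0.0420), in TNF-α replicate 1 alone it was -0.67 (adjusted p = 0.00682), and without that replicate -0.21 (adjusted p = 0.0220), while over all alternatives the adjusted p ran from 0.00682 to 0.487.

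In the isoprenoid branch, which uses farnesyl and geranylgeranyl diphosphate for prenylation, dolichol and ubiquinone, 6 of 14 genes had an unadjusted p under 0.05, all with positive fold changes (42.9%, against 12.3% of all genes in that direction), and the median was 0.30, or 0.19 after the correction. The CAAX protease gene RCE1 was 8.38 ± 0.241 FPKM in NC and 18.2 ± 8.22 FPKM in TNF-α (log2 fold change 0.92), and RABGGTA, a subunit of the Rab prenyltransferase, was 6.50 ± 0.643 and 12.5 ± 4.78 FPKM (0.79). Both lay above NC in all 3 TNF-α libraries, replicate 1 by the smallest margin, and after the GC and length correction they were at 0.26 and 0.21. Lysosomal and membrane sterol transport had a median of -0.29 over the 13 genes tested, or 0.03 after the correction. In this list 3 genes had an unadjusted p under 0.05, all negative (23.1%, against 11.9%). The fold changes furthest from 0 there were those of GRAMD1A, a carrier of plasma membrane cholesterol, at 0.68 (-0.02 to 1.38), and STARD3, a late endosomal tether, at 0.64 (-0.07 to 1.35). Both were within the NC range in TNF-α replicate 1, and they were at 0.40 and 0.31 after the GC and length correction and at 0.21 and 0.17 as TPM. Of 11 genes of esterification, oxysterols and export 6 were tested, with a median of -0.04, or 0.14 after the correction. At an unadjusted p under 0.05 there were 2 of the 6, both positive (33.3%, against 12.3%). The liver X receptor gene NR1H2 was 29.1 ± 3.05 FPKM in NC and 57.6 ± 22.6 FPKM in TNF-α (0.88, 0.10 to 1.67). In TNF-α replicate 1 it was 32.4 FPKM, within the NC range of 26.7 to 32.5 FPKM, and its log2 fold change was 0.33 after the correction and 0.40 as TPM. The cholesterol ester hydrolase gene NCEH1 was 50.2 ± 2.12 and 34.0 ± 23.3 FPKM (-0.74, -1.79 to 0.30), with TNF-α replicate 1 above NC and replicates 2 and 3 below.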

How the data were processed

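Gene expression was deposited by the authors as FPKM, 1 value per gene and library, with gene lengths. Library construction and sequencing were done by a service company after poly(A) selection. The submitters' processing notes name HISAT2 2.0.5, StringTie 1.3.3b, featureCounts 1.5.0, DESeq2, edgeR and GATK 3.7 without their roles. The genome build and the use of strand are not given in the sources used here. All 58735 genes matched GENCODE 29 on GRCh38 in identifier, name, start, end and merged exon length. The 6 further columns of per-sample values, which match no sample described here, were not used.

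Groups and replicate numbers were taken from the sample titles. In each library, 100% of the products of FPKM and gene length were whole multiples of 1 step (within 0.1), which gave whole reads, 31992167 to 37897044 per library. Intervals from these reads would cover counting error only, and none are given. Genes at 1 FPKM or more in 3 or more libraries were tested as log2(FPKM + 1), a pseudocount of 1, by limma 3.58.1 in R 4.3.3 (lmFit, eBayes with trend, two-sided), adjusted by Benjamini-Hochberg over 12136 genes with a threshold of 0.05. Scripts were tested on simulated data. Intervals of fold changes are 95% confidence intervals.

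In the GC and length correction, natural splines with 5 degrees of freedom each, and their products, were fitted to each library's log2 ratio and subtracted. Other alternatives were a pseudocount of 0.1, an FPKM minimum of 5 or none, TPM, median centring, eBayes without trend, limma-voom on reads with TMM factors, the replicate number as a block, and leaving out each library. TNF-α replicate 1 alone against NC was added after seeing the data. Python 3.11.15, numpy 2.4.6, pandas 2.3.3 and matplotlib 3.10.9 were used for tables and plots.

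The genes and the lists around them were chosen with earlier results of these data known. All 28 genes are named, those at 0.5 or more in absolute log2 fold change or past the threshold in any fit with each library's value; of the further lists, the 2 genes with the largest absolute change and any past the threshold are named. ERLIN2 and SREBF1 are the 2 of the first list. NFKBIA, TNFAIP3, CXCL8 and ICAM1 served as a check of the treatment. As same-numbered libraries were not shown to be paired, no block was used in the reported values.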

Additional observations from a re-analysis of the deposited data

How the results depend on the processing

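The limits are 3 libraries per group, the distance of TNF-α replicates 2 and 3 from the rest, and the overlap of exons with other genes. Among all genes 123 passed; 58 passed with no filter on low values, 79 with an FPKM minimum of 5, 58 as TPM, 247 after the GC and length correction, 732 with TNF-α replicate 1 alone against NC, and 10 to 9630 when a library was left out (17, 10 and 13 without NC replicates 1, 2 and 3; 9630, 42 and 20 without TNF-α replicates 1, 2 and 3). Of the 28 genes 0 passed, with 0 to 24 when a library was left out (24 without TNF-α replicate 1, 0 without any other) and 2 in TNF-α replicate 1 alone; 22 could be fitted with an FPKM minimum of 5. Of the related genes 0 passed, 1 after the GC and length correction and in TNF-α replicate 1 alone, SREBF1 in both, and 0 to 40 when a library was left out. With the replicate number as a block 24 genes and 0 of the 28 passed; the deviations of same-numbered libraries correlated at -0.01, -0.18 and 0.12, so the numbers were not taken as pairs.

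The median log2 fold change of the 28 genes, 0.06, was -0.42 as TPM, a setting that took the all-gene median from 0.04 to -0.42, -0.08 after the GC and length correction, -0.01 with limma-voom, -0.12 in TNF-α replicate 1 alone and 0.01 to 0.27 when a library was left out. Fold changes took the other sign as TPM in ACAT2 (-0.43), FDPS (-0.10), GGPS1 (-0.049), FDFT1 (-0.36), LSS (-0.23), MSMO1 (-0.061), HSD17B7 (-0.15), DHCR7 (-0.25), SCAP (-0.024) and INSIG2 (-0.41), of which only ACAT2 lay below the shift of all genes. They did so after the GC and length correction in ACAT2 (-0.11), IDI1 (0.053), FDPS (-0.044) and DHCR7 (-0.20), and with limma-voom in ACAT2 (-0.017) and INSIG2 (-0.0063). When a library was left out the ranges spanned 0 for ACAT2 (-0.091 to 0.30), IDI1 (-0.13 to 0.029), SQLE (-0.37 to 0.0052), TM7SF2 (-0.36 to 0.25), SREBF2 (-0.056 to 0.032) and INSIG2 (-0.012 to 0.15). In TNF-α replicate 1 alone the sign was opposite in ACAT2 (-0.41), MVK (-0.12), PMVK (-0.36), MVD (-0.28), FDPS (-0.22), FDFT1 (-0.29), SQLE (0.22), NSDHL (-0.053), HSD17B7 (-0.12), EBP (-0.29), DHCR7 (-0.16) and STARD4 (0.17). The cause of these reversals was not tested. Over the 16 alternatives, or 15 for CYP51A1 and MBTPS2, 8 genes kept their sign. These were HMGCS1, CYP51A1, LBR, SC5D, MBTPS1, MBTPS2, INSIG1 and MYLIP, all negative, and INSIG1 ran from -0.83 to -0.22. The changes of filter, eBayes without trend and the replicate block left these fold changes as they were, so no sign could turn there. TPM and median centring lowered the fold changes of the 28 genes, so only positive ones could turn. TPM gave the only reversal of GGPS1, LSS, MSMO1 and SCAP. That all 8 were negative therefore depends in part on the settings chosen.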
